A study of Homo sapiens with 12 samples.

Results

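The comparison described here is the interaction of cell line and treatment, that is, the response of Ls174 intestinal cancer cells to HME minus the response of HepG2 liver cancer cells to the same extract. It uses 12 of the 12 libraries of the series, 3 in each of 4 groups, since the contrast needs both lines with and without HME. HME is a methanol extract of the marine red alga Hypnea musciformis. HepG2 is an established line from a liver cancer and Ls174 one from a colon cancer, and the labels give both as wild type. Control cells were left untreated, and treated cells received the extract for 24 h near its IC50, a concentration set by its inhibition of cell growth. The labels put it at 0.7 mg/ml for both lines and the methods of the study slightly higher. The study reports a slightly higher IC50 for HepG2 than for Ls174, so the common dose was not the exact IC50 of each line. Different kinetics or dose needs of the lines, which the study names as possible, were not tested here. Each tissue is represented by 1 line, so a difference between lines cannot be told apart from a difference between liver and colon cancer cells in general. The RNA was read with 3′ libraries, in which each transcript gives reads near its end, and the 3 libraries per group are biological replicates by the methods of the study, so that all p values measure the spread between these replicates.

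Cells exposed to stress or growth signals first switch on immediate-early genes such as EGR1, ATF3 and the FOS family, whose products are transcription factors that need no new protein to be made. The same signals pass through the MAP kinases, and part of the early response consists of brakes on them, such as the DUSP phosphatases, and of proteins such as ZFP36 that remove short-lived messages by binding AU-rich stretches in their 3′ ends. Metallothioneins, which bind zinc and other metals, and the cytokines IL11 and LIF are further genes that cells can raise under stress.

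In HepG2 cells HME raised a set of genes, among them early response factors, cytokines and the metallothionein MT2A, for which no change or a smaller rise passed the test in Ls174 cells, and a smaller set of genes fell in Ls174 cells while rising, or with no change that passed, in HepG2 cells. The interaction was given as a log2 value, the log2 fold change of Ls174 minus that of HepG2, so that a negative value means a larger rise or a smaller fall in HepG2. Of 13040 genes tested with edgeR, 84 were called at a Benjamini-Hochberg adjusted p under 0.05, which is 0.644% of all. Of these calls 80 (0.613% of genes tested) had a negative and 4 (0.0307%) a positive value. The gene SLC5A3 is listed under 2 identifiers with the same reads, which leaves 83 distinct genes. Among the called genes the absolute interaction was 1.69 or more, with a median SE of 0.49, against a median SE of 0.62 over all tested genes. The median of the signed interaction over all tested genes was 0.04, which does not measure its usual size.

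The same fit called 807 genes (6.19%) for the effect of HME within HepG2 and 100 genes (0.767%) within Ls174. Of the 781 genes called in HepG2 only, 64 were also called for the interaction, so that most genes past the threshold in 1 line were not shown to differ between the lines. At the thresholds of the study, an unadjusted p under 0.05 and a log2 value beyond 0.58, the interaction gave 1718 genes (13.2%), with 750 positive (5.75%) and 968 negative values (7.42%). Among the 84 called genes, 45 rose in HepG2 with an unadjusted p of at least 0.05 in Ls174, with median log2 fold changes of 3.03 and -0.20. At an unadjusted p under 0.05, a further 19 rose in HepG2 and fell in Ls174, 10 fell in Ls174 only, 6 rose in both lines with the larger rise in HepG2, and the remaining 4 had the positive values.

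**Figure D1:**
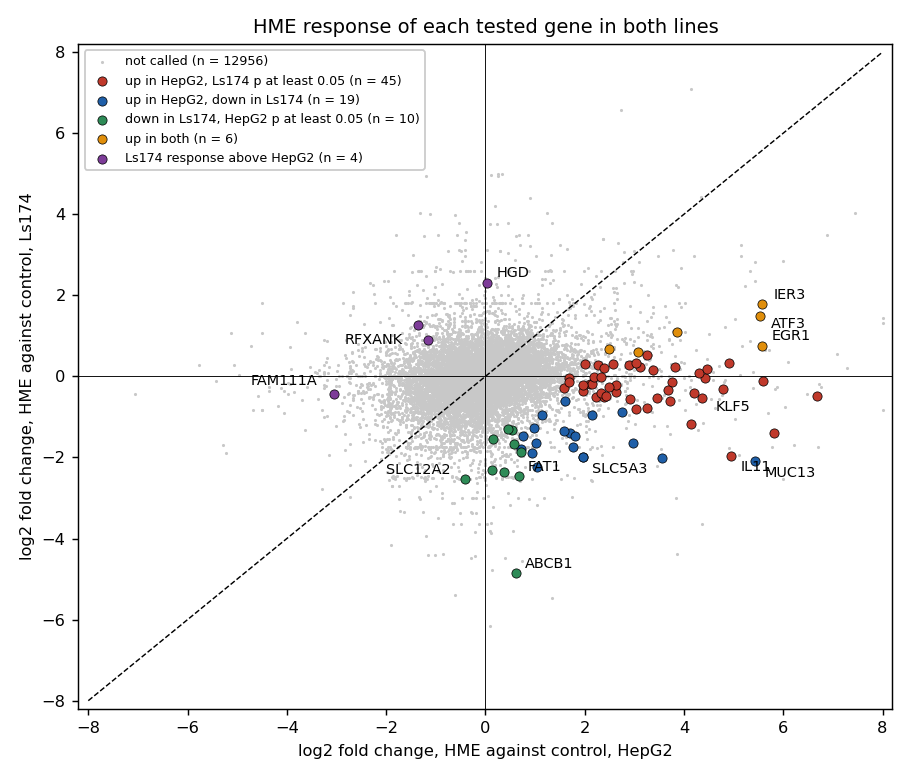
Log2 fold change of each tested gene, HME against control, in HepG2 (x axis) and Ls174 (y axis). Grey points are genes that were not called, coloured points the 84 called for the interaction, grouped by direction in each line. The dashed line marks equal responses. Values beyond 8 are drawn at 8. Called genes lie mostly to the right of the line and below it, and 4 lie above it.

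Libraries held 1790841 to 3656662 counts, so that 3 counts, the floor below which a level was read as not detected, correspond to between 1.09 and 1.87 CPM, the value in the shallowest library of each group. CPM values are counts relative to the TMM-scaled total of a library. The labels of the lines held, since the liver markers summed to between 16330 and 28820 CPM in HepG2 libraries and the intestinal factor CDX1 lay between 76.8 and 207 CPM in Ls174 libraries against at most 0.81 CPM in HepG2. Some libraries stood apart, and their part in the results was not tested except where a value without them is given. HepG2 HME 2 held 551.5 CPM of COL1A1 and 407.6 CPM of COL1A2, collagens of mesenchymal cells that stayed at or under 6.06 and 3.23 CPM in the other 11 libraries, and 2 of the 7 mesenchymal markers were at 0 in it. Ls174 control 3 and Ls174 HME 1 held 45.1 and 16.4 CPM of the liver gene ALB, and Ls174 HME 3 held 9.53 CPM. Sample weights of limma voom were lowest for HepG2 control 2 and Ls174 control 1, at 0.18 and 0.17. Without these last 2 libraries 433 genes were called and 113 of them had a positive value, which is 26.1% of calls against 4.76% with all libraries, and 83 of the 84 genes were among them.

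On the list of immediate-early transcription factors and MAPK feedback genes, 22 of 29 tested members rose in HepG2 at an adjusted p under 0.05 and 1 rose in Ls174, against 3.99% and 0.176% of all genes. For the interaction 8 of the 29 were called, all with a negative value (0.613% of all genes were called in that direction), and 19 of 29 passed the thresholds of the study in that direction and 0 in the other (7.42% and 5.75% of all genes). The median interaction of the list was -2.69, or -2.12 where genes absent from a whole group were set to the bound their floor gives.

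EGR1 (ENSG00000120738, counted in the UTR at chr5:137803771-137805201, hg19), a zinc finger factor of the growth and stress response, was at 5.38, 4.36 and 1.21 CPM in HepG2 control and at 167.8, 189.5 and 182.0 CPM in HepG2 HME cells. In Ls174 cells it was at 11.8, 17.7 and 16.4 CPM in control and at 23.7, 23.1 and 31.6 CPM with HME. All treated libraries lay above the controls of their line, but the step was far larger in HepG2, and the interaction was -4.82 ± 0.52 (SE; adjusted p = 0.00061). ATF3, a stress-induced repressor and activator of the CREB family, rose in HepG2 from 5.92, 1.87 and 5.25 CPM to 258.8, 170.0 and 215.6 CPM. In Ls174 it was at 0, 5.90 and 3.33 CPM in control and at 10.2, 9.96 and 8.22 CPM with HME, with an interaction of -4.03 ± 0.80 (adjusted p = 0.0339). Its groups did not overlap in either line. ATF3 was called in only 2 of the 12 fits that leave out 1 library (adjusted p up to 0.1575, without Ls174 control 2), whereas EGR1 was called in all 12.

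KLF5 (ENSG00000102554, UTR at chr13:73649917-73651873), a Kruppel-like factor of epithelial and intestinal cells that is not on the list, had 1.61, 1.25 and 1.62 CPM in HepG2 control and 52.6, 36.1 and 41.4 CPM in HepG2 HME cells. Ls174 control cells already held 57.05, 76.7 and 82.2 CPM, and Ls174 HME cells 63.8, 58.7 and 51.6 CPM. HME thus brought KLF5 in HepG2 close to the level that Ls174 cells had with and without extract, and the Ls174 groups overlapped. The interaction was -5.10 ± 0.43 (adjusted p = 0.000115), the smallest adjusted p of the table, and stayed at an adjusted p of at most 0.00142 without any 1 library. IER5, an early response protein of the nucleus, rose 10.9-fold in HepG2 (log2 3.45 ± 0.32) with an interaction of -3.99 ± 0.43 (adjusted p = 0.00061), and its Ls174 HME libraries, at 15.1 to 19.3 CPM, all lay below the Ls174 controls at 20.7 to 30.7 CPM.

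IER3, an early response protein that acts on cell survival, changed in both lines. It rose from 82.5, 53.6 and 80.4 CPM to 3086, 3539 and 3764 CPM in HepG2 and from 147.5, 330.6 and 326.4 CPM to 1047, 859.8 and 850.1 CPM in Ls174. Both lines moved without overlap, by 47.8-fold in HepG2 and 3.42-fold in Ls174. The difference between these steps was -3.80 ± 0.48 (adjusted p = 0.00143), and IER3 was the only gene of the list with an adjusted p under 0.05 in each line (4.83e-06 and 0.0284). The AP-1 subunits FOSL1 and FOSL2 rose in HepG2, FOSL2 from 25.3, 10.6 and 14.1 CPM to 67.3, 160.1 and 89.5 CPM with the highest value in HepG2 HME 2, the library with collagen RNA. In Ls174 FOSL2 lay between 14.2 and 20.6 CPM in all 6 libraries, and its interaction was -2.85 ± 0.53 (adjusted p = 0.0276). FOSL1 had an interaction of -2.75 ± 0.58 (adjusted p = 0.0447). These last calls lay near the threshold. FOSL2 kept an adjusted p under 0.05 in 4 and FOSL1 in 3 of the 12 fits without 1 library (up to 0.117 without Ls174 HME 2 and 0.157 without Ls174 HME 1). Over all alternative fits the interaction stayed between -3.24 and -2.40 for FOSL2 and between -3.07 and -2.135 for FOSL1.

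Other transcription factors of the list went the same way without passing. FOS had no read in HepG2 control and a mean of 18.6 CPM in HepG2 HME cells, and its adjusted p for the interaction was 0.0577. JUN had an interaction of -2.94 ± 0.82 and JUNB of -2.69 ± 0.68, with adjusted p values of 0.134 and 0.0932. NR4A1, an orphan nuclear receptor induced by many signals and not on the list, was called with an interaction of -4.91 ± 0.79 (adjusted p = 0.0114). It is named after its values were seen, and its HepG2 libraries went from 2.15, 0.62 and 1.62 CPM to 22.2, 21.9 and 58.9 CPM.

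Brakes on the same signals were called as well. DUSP5 (ENSG00000138166, UTR at chr10:112270185-112271499), a nuclear phosphatase that switches off ERK, was at 1.61, 1.25 and 1.21 CPM in HepG2 control and at 89.4, 52.0 and 67.9 CPM in HepG2 HME cells. Ls174 cells held 10.3, 5.59 and 3.33 CPM in control and 8.02, 3.20 and 5.92 CPM with HME, which overlap. With -5.71 ± 0.69 (adjusted p = 0.000985) it had the lowest interaction of all called genes with a mean of at least 5 CPM in each line. DUSP1, a phosphatase of p38, JNK and ERK, rose from 5.92, 6.85 and 4.85 CPM to 85.9, 64.7 and 73.3 CPM in HepG2, and lay between 0.77 and 3.93 CPM in Ls174, near the floor (interaction -4.01 ± 0.76, adjusted p = 0.0276). DUSP5 was called without any 1 library, while DUSP1 was called in 4 of 12 such fits (adjusted p up to 0.115, without Ls174 HME 2). ZFP36, the AU-rich element binding protein tristetraprolin, also not on the list, went from 0.27, 0.62 and 1.21 CPM to 19.4, 13.1 and 13.8 CPM in HepG2 and stayed between 3.10 and 6.92 CPM in Ls174. Its interaction of -4.28 ± 0.76 had an adjusted p of 0.019 and was called in 5 of the 12 fits (up to 0.0846, without Ls174 HME 2). DUSP6, SPRY2, SPRED1 and SPRED2, further inhibitors of the ERK pathway, had interactions between -4.08 and -1.90 and adjusted p values between 0.0615 and 0.22, so that none of these was called.

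On the list of cytokines and JAK-STAT feedback genes, 4 of 11 tested members were called, all negative (0.613% of all genes were), and the median interaction was -1.82. IL11 (ENSG00000095752, UTR at chr19:55875560-55877374) was at 2.15, 4.36 and 2.43 CPM in HepG2 control and at 88.2, 88.4 and 88.9 CPM in HepG2 HME cells. In Ls174 it was at 5.90, 0.62 and 0.51 CPM in control and at 1.09, 0 and 0.33 CPM with HME, at or near the floor, so that the fitted interaction of -6.92 ± 1.17 (adjusted p = 0.0157) rests on a 31.0-fold rise in HepG2 and on few reads in Ls174. LIF went from 0.81, 0.62 and 1.21 CPM to 8.31, 10.96 and 18.0 CPM in HepG2 and never exceeded 2.17 CPM in Ls174 (interaction -4.31 ± 0.85, adjusted p = 0.0339). IL11 was called in 10 and LIF in 2 of the 12 fits without 1 library (adjusted p up to 0.0634 without Ls174 HME 3 and 0.125 without Ls174 HME 2).

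PIM1, a kinase that cytokine receptors induce through STAT factors, was well measured in both lines. Its HepG2 libraries rose from 10.5, 7.48 and 12.1 CPM to 206.2, 103.6 and 121.9 CPM, and its Ls174 libraries were at 23.1, 15.2 and 19.7 CPM in control and at 25.1, 12.8 and 29.9 CPM with HME. The groups separated in HepG2 and overlapped in Ls174, with an interaction of -3.59 ± 0.53 (adjusted p = 0.00642) that was called without any 1 library. Its relative PIM3 rose 9.60-fold in HepG2, with a ratio of 1.44 in Ls174 (adjusted p = 0.575) and no overlap in either line, and the interaction was -2.74 ± 0.41 (adjusted p = 0.00793; called in 10 of 12 fits, up to 0.0518 without Ls174 HME 2).

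The AU-rich stretches mentioned above were searched for in these genes. The nonamer TTATTTATT, the core of the AU-rich element that ZFP36 binds, was present in the longest annotated 3′ UTR of 13 of 44 genes that rose in HepG2 only (29.5%), in 6 of 28 that fell in Ls174 (21.4%) and in 1064 of 11170 tested genes with a 3′ UTR (9.53%). The 28 include genes that also rose in HepG2. Their median 3′ UTR was 2655 bases, against 1812 for the genes that rose in HepG2 only and 1810 for all tested genes, and a longer UTR has more room for a match. This is a description of letters on the sense strand, with no test. As examples, 1 site within the counted region of each of 8 called genes that rose in HepG2 is shown with 10 bases on each side, the nonamer in capitals, read from GENCODE v44lift37 on GRCh37. They stand at chr19:55877039-55877067 (IL11, minus strand), chr22:30636947-30636975 (LIF, minus), chr6:37142765-37142793 (PIM1, plus), chr5:172195646-172195674 (DUSP1, minus), chr19:39899836-39899864 (ZFP36, plus), chr13:73651315-73651343 (KLF5, plus), chr10:6277249-6277277 (PFKFB3, plus) and chr2:28639222-28639250 (FOSL2, plus).
IL11: ggaacatataTTATTTATTtaagcaatta
LIF: ctccgggcccTTATTTATTatttaaacat
PIM1: atgtatttatTTATTTATTtatttggttc
DUSP1: gggctggtccTTATTTATTtaacttcacc
ZFP36: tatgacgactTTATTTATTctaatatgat
KLF5: ttgtttatctTTATTTATTttgtggtaat
PFKFB3: gatgtgctatTTATTTATTtaatatgtat
FOSL2: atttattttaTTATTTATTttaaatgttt

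The FOS family binds AP-1 sites, whose letters were searched for near the starts of the called genes. In the 250 bases before and 50 bases after the start of the canonical GENCODE transcript, TGACTCA on either strand was found in 8 of 44 genes that rose in HepG2 only (18.2%), in 1 of 28 that fell in Ls174 (3.57%) and in 333 of 12786 tested genes with a start (2.6%). The cyclic AMP element TGACGTCA was in 3 of the 44 (6.82%) against 3.12% of all. TGCNCNC, a loose form of the metal response core, was in 26 (59.1%) against 62.7%. At that share of all genes these letters cannot tell metal response genes from others. The 1 AP-1 match among the 28 was in MUC13, which moved in opposite directions in the lines. A match of letters is not a site shown to be bound. The matches of called genes named here are printed, for LINC00152 the first of 2, 5′ to 3′ on the strand of the gene, with the match in capitals, which reads TGAGTCA where it lies on the other strand. They lie at chr19:55881911-55881937 (IL11, minus strand), chr16:56642382-56642408 (MT2A, plus), chr11:65667844-65667870 (FOSL1, minus), chr2:28615719-28615745 (FOSL2, plus), chr2:87754917-87754943 (LINC00152, plus) and chr3:124653757-124653783 (MUC13, minus), all GRCh37.
IL11: gcagggagggTGAGTCAggatgtgtca
MT2A: gagccgcaagTGACTCAgcgcggggcg
FOSL1: acggcgcgggTGAGTCAgaacccagca
FOSL2: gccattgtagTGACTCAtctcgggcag
LINC00152: gtggtggctaTGAGTCAgcatgagtca
MUC13: ttttgggcttTGAGTCAgaaaaatgat

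Single genes of metal binding and glucose use were called too. MT2A (ENSG00000125148, UTR at chr16:56643098-56643606), the main metallothionein of most human cells, was at 105.1, 104.7 and 210.2 CPM in HepG2 control and at 2018, 2009 and 1641 CPM in HepG2 HME cells. In Ls174 it was at 309.3, 281.5 and 205.1 CPM in control and at 236.8, 251.8 and 239.2 CPM with HME, which overlap. The interaction was -3.88 ± 0.45 (adjusted p = 0.000665) and was called without any 1 library. On the list of metallothioneins and the zinc exporter SLC30A1, MT2A was the 1 called member of 8 tested (0.613% of all genes were called with a negative value), and 5 of 8 passed the thresholds of the study with a negative value (7.42% of all genes), among them MT1E (-2.56 ± 0.59, adjusted p = 0.0689). The list had a median interaction of -2.15.

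PFKFB3, which makes the fructose bisphosphate that speeds glycolysis, rose from 5.38, 4.98 and 6.06 CPM to 93.0, 115.2 and 150.1 CPM in HepG2. Ls174 cells held 81.6, 75.7 and 78.3 CPM in control and 97.6, 55.8 and 76.2 CPM with HME. The mean in HepG2 thus went from below that of Ls174 cells to above it (119.5 against 76.6 CPM with HME). Its interaction was -4.46 ± 0.42 (adjusted p = 0.00019) and held at 0.00237 or less without any 1 library. On the list of hypoxia targets and glucose use, PFKFB3 and the vasodilator peptide gene ADM were the 2 called of 30 tested (0.613% of all genes), 9 passed the thresholds of the study with a negative value (7.42%), and the median was -0.95.

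SFN, the p53 target 14-3-3 sigma, went from 65.9, 282.8 and 130.1 CPM to 1204, 1059 and 1627 CPM in HepG2. In Ls174 it was at 1360, 413.5 and 460.8 CPM in control and at 526.8, 358.8 and 382.5 CPM with HME, and the highest control value was that of Ls174 control 1, a library of low weight. The interaction was -3.84 ± 0.74 (adjusted p = 0.0311, up to 0.125 without Ls174 HME 2). SFN was the only called gene among 29 tested p53 targets (0.613% of all genes were called with a negative value), of which 8 passed the thresholds of the study with a negative and 2 with a positive value (7.42% and 5.75% of all genes). DESeq2 called 4 and limma voom 6 of the 29, against 2.91% and 6% of all genes. The median interaction of the list was -0.64, but -0.23 with limma voom and -0.19 without HepG2 control 2 and Ls174 control 1. CNNM4, a magnesium transporter of epithelia, rose 9.61-fold in HepG2 and had an interaction of -4.05 ± 0.55 (adjusted p = 0.00287), with Ls174 groups that overlapped. JAG1, a Notch ligand, rose 7.56-fold in HepG2 with an interaction of -3.48 ± 0.40 (adjusted p = 0.00061). JAG1 is named after its values were seen, as 1 of the 15 entries, CNNM4 among them, that were called without any 1 library.

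**Figure D2:**
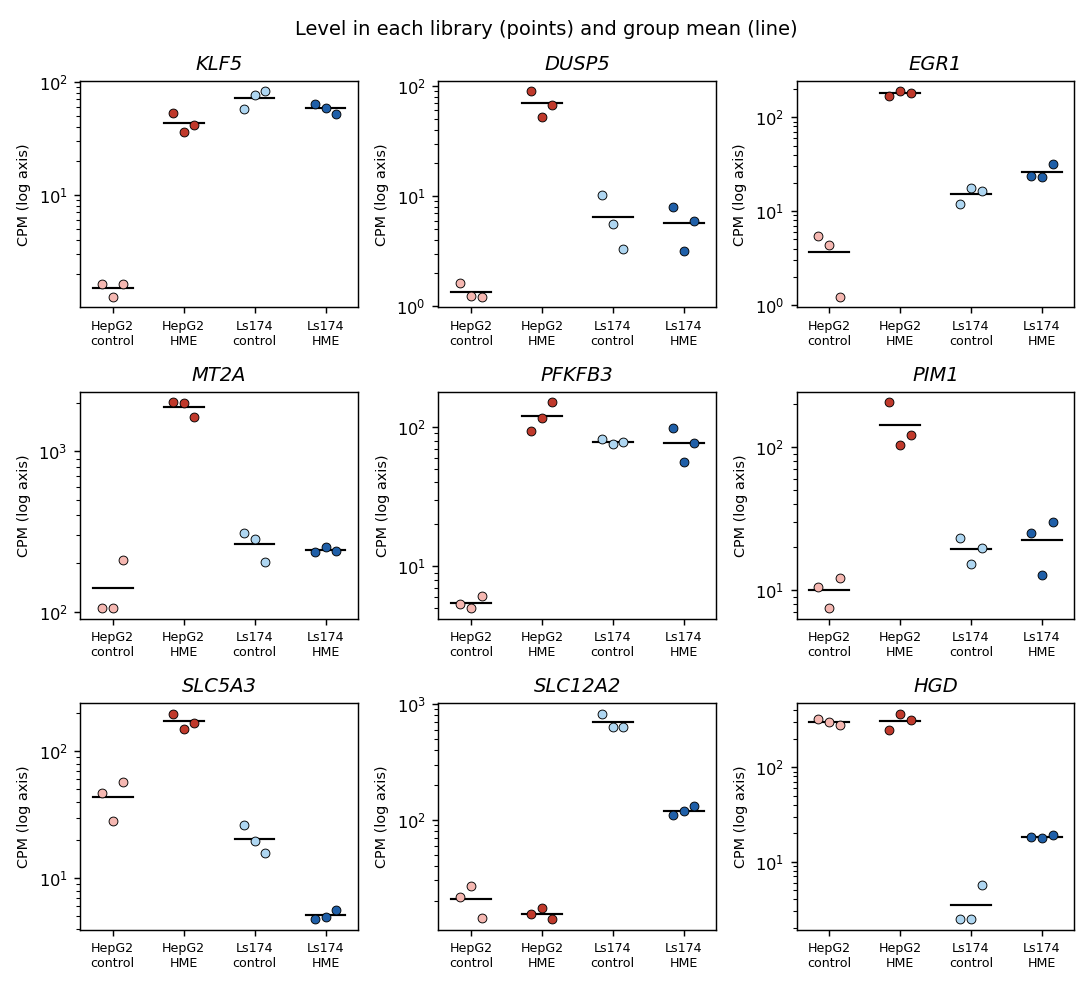
Level of 9 called genes in each library, in CPM on a log axis, for the 4 groups. Points are single libraries and lines group means. KLF5, DUSP5, EGR1, MT2A, PFKFB3 and PIM1 rise in HepG2, SLC5A3 rises in HepG2 and falls in Ls174, SLC12A2 falls in Ls174, and HGD rises in Ls174.

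Genes that moved in opposite directions numbered 21 entries, or 20 distinct genes, counted as called for the interaction with an unadjusted p under 0.05 and opposite signs in the lines. Of these entries 19 rose in HepG2 and fell in Ls174, and 2 did the reverse. With an adjusted p under 0.05 in each line the count was 4 entries, which are SLC5A3 under both identifiers, APP and ACSL3. In bulk RNA, a smaller number of cells of a kind and less RNA per cell cannot be told apart.

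SLC5A3 (ENSG00000198743, UTR at chr21:35469655-35478756), the transporter that brings the osmolyte myo-inositol into cells, rose from 46.8, 28.03 and 56.98 CPM to 197.8, 148.8 and 168.2 CPM in HepG2. In Ls174 it fell from 26.1, 19.6 and 15.9 CPM to 4.74, 4.98 and 5.59 CPM. No group overlapped, the rise was 3.88-fold, the log2 fold change in Ls174 was -1.98 ± 0.34, and the interaction was -3.94 ± 0.45 (adjusted p = 0.00061), called without any 1 library.

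APP, the amyloid precursor protein, was at 135.2, 126.5 and 119.6 CPM in HepG2 control and at 154.7, 340.4 and 274.5 CPM with HME. In Ls174 it fell from 299.5, 329.0 and 350.5 CPM to 94.4, 112.7 and 105.2 CPM. Neither line overlapped, although HepG2 HME 1 lay close to the controls, and the interaction was -2.66 ± 0.40 (adjusted p = 0.00815, up to 0.0508 without Ls174 HME 3). ACSL3, which activates long-chain fatty acids, went from 180.4, 107.1 and 143.5 CPM to 239.8, 317.8 and 291.3 CPM in HepG2 and from 130.3, 130.7 and 136.2 CPM to 58.7, 48.4 and 56.9 CPM in Ls174. Neither line overlapped, and the interaction was -2.25 ± 0.36 (adjusted p = 0.0114, up to 0.0689 without Ls174 HME 2). The transferrin receptor TFRC fell by 1.47 ± 0.31 on the log2 scale in Ls174 and had 0.75 ± 0.30 in HepG2, with an interaction of -2.22 ± 0.43 (adjusted p = 0.0311, up to 0.125 without Ls174 HME 2). APP and TFRC are named after their values were seen.

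Among the genes with the largest opposite movements, ITGA2, the collagen-binding integrin subunit alpha 2, went from 22.6, 17.4 and 12.1 CPM to 47.1, 67.5 and 64.9 CPM in HepG2. In Ls174 it went from 11.3, 14.3 and 16.6 CPM to 6.92, 1.78 and 3.94 CPM, with an interaction of -3.52 ± 0.57 (adjusted p = 0.0125, up to 0.0634 without Ls174 HME 3). SLC19A2, a thiamine transporter, had 1.81 ± 0.41 in HepG2 and -1.47 ± 0.41 in Ls174, an interaction of -3.28 ± 0.58 with an adjusted p of 0.0198 (up to 0.0745 without Ls174 HME 3). Both genes moved without overlap in each line. ADM rose from 17.8, 31.8 and 30.7 CPM to 94.2, 406.2 and 120.1 CPM in HepG2, the highest in HepG2 HME 2, and its Ls174 libraries overlapped at 39.8, 12.1 and 8.71 CPM in control and 2.55, 4.62 and 11.5 CPM with HME. Its interaction of -4.60 ± 0.96 (adjusted p = 0.0447) was called in only 1 of the 12 fits without 1 library (up to 0.163, without Ls174 HME 2).

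PLK2, a kinase of the centriole cycle, rose 11.8-fold in HepG2, from 3.76, 3.12 and 10.1 CPM to 85.5, 62.6 and 55.3 CPM. In Ls174 it lay between 0.77 and 3.10 CPM in control and between 0.36 and 0.66 CPM with HME, below the floor, so the fall was close to the limit of these libraries (interaction -5.58 ± 0.89, adjusted p = 0.0109, up to 0.0532 without Ls174 control 2). MUC13, a membrane mucin of the gut, had no read in any HepG2 control and 3.17, 1.77 and 0.60 CPM in HepG2 HME cells, both at or under the floor on average, so that its rise has no usable fold. In Ls174 it went from 69.8, 23.9 and 22.0 CPM to 12.4, 6.76 and 7.89 CPM, a fall of log2 -2.08 ± 0.53, and its interaction of -7.52 ± 1.51 (adjusted p = 0.0454) depended on the value the fit gives to a group at 0. MUC13 was called in 2 of the 12 fits without 1 library, with an adjusted p of up to 0.154 without HepG2 HME 1. MAN1A1, a mannosidase of N-glycan trimming, and SGMS1, a sphingomyelin synthase, had interactions of -3.27 ± 0.67 and -2.93 ± 0.60 with adjusted p values of 0.0382 and 0.0364 (up to 0.157 without Ls174 HME 3 and 0.141 without Ls174 HME 1).

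RFXANK, a subunit of the factor that drives MHC class II genes, moved the other way, from 14.2, 14.3 and 12.1 CPM to 5.54, 7.07 and 5.41 CPM in HepG2 and from 19.2, 23.3 and 25.9 CPM to 35.7, 44.8 and 46.7 CPM in Ls174. Neither line overlapped, and the interaction was 2.05 ± 0.41 (adjusted p = 0.036). The antisense transcript RP11-284F21.10 likewise fell in HepG2, from 22.3, 38.6 and 20.2 CPM to 6.33, 12.4 and 12.6 CPM, and had 13.8, 11.8 and 14.3 CPM in Ls174 control against 22.6, 39.1 and 34.2 CPM with HME (interaction 2.63 ± 0.52, adjusted p = 0.0339). All counts of RP11-284F21.10 lay in 1 region past the end of the gene in GENCODE v44lift37. How the counting used strand is not given in the sources used here, so reads of RP11-284F21.10 and of an overlapping gene cannot be told apart. Their adjusted p reached 0.138 without Ls174 HME 3 and 0.131 without Ls174 HME 2.

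**Figure D3:**
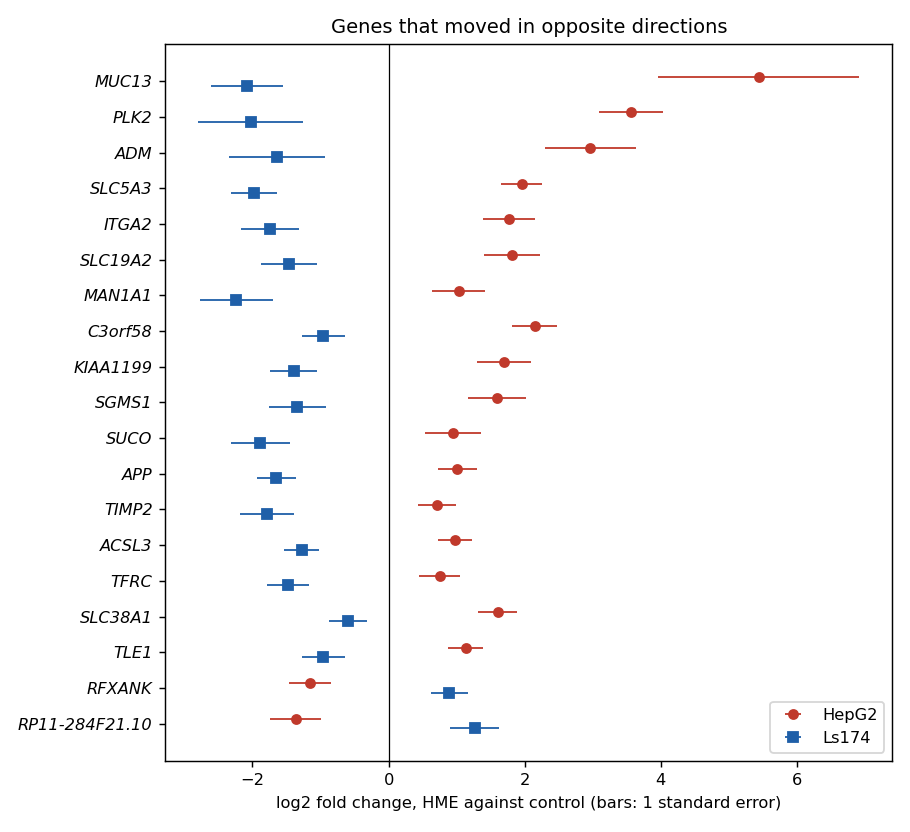
Log2 fold change of 19 genes that moved in opposite directions, HME against control, with 1 SE, in HepG2 (circles) and Ls174 (squares). For 17 genes HepG2 lies to the right of 0 and Ls174 to the left, and for RFXANK and RP11-284F21.10 the order is reversed. The HepG2 value of MUC13 depends on the value the fit gives to a group without reads.

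The third pattern was a fall in Ls174 and an unadjusted p of at least 0.05 in HepG2, in 10 genes whose median log2 fold change was -2.09 in Ls174 and 0.50 in HepG2. SLC12A2, the sodium, potassium and chloride cotransporter NKCC1 of secreting epithelia, went from 829.1, 630.1 and 632.1 CPM to 109.7, 118.8 and 133.1 CPM in Ls174. In HepG2 it was at 21.5, 26.8 and 14.1 CPM in control and at 15.4, 17.3 and 13.8 CPM with HME, which overlap. The interaction was -2.12 ± 0.40 (adjusted p = 0.0276, up to 0.117 without Ls174 HME 2), and SLC12A2 was likewise named after its values were seen. FAT1 (ENSG00000083857, UTR at chr4:187508740-187509745), a giant cadherin, went from 105.2, 178.2 and 147.0 CPM to 26.6, 22.0 and 29.6 CPM in Ls174 and from 49.2, 16.8 and 34.4 CPM to 49.5, 58.3 and 54.6 CPM in HepG2. The Ls174 groups lay well apart, and the HepG2 groups only just so. Its interaction of -3.13 ± 0.49 (adjusted p = 0.00993) was called in 11 of the 12 fits (0.0518 without Ls174 HME 2), and it was the 1 called member of 16 tested basement membrane and cadherin genes (0.613% of all genes). CERS6, a ceramide synthase, fell in Ls174 from 80.6, 62.1 and 44.6 CPM to 19.3, 18.1 and 21.4 CPM and was at 28.5, 19.3 and 32.3 CPM in HepG2 control and 40.8, 37.1 and 42.6 CPM with HME. The interaction of CERS6 was -2.24 ± 0.41 (adjusted p = 0.0276, up to 0.117 without Ls174 HME 2). CERS6 and SGMS1 were the 2 called of 20 tested sphingolipid genes, both negative (0.613% of all genes were), and 0 were called with library size scaling. At the thresholds of the study 6 of the 20 had a negative and 1 a positive value (7.42% and 5.75% of all genes), with a median of -0.85 for the list.

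The other members of this pattern were ABCB1, CPD, CRIM1, DSC2, PTPRK, SORL1 and TGFBR3. The drug efflux pump gene ABCB1 was at 0.49, 1.86 and 1.28 CPM in Ls174 control and had no read in Ls174 HME cells, which bounds its fall only at 1.11-fold or more, while HepG2 had 30.9 ± 2.37 CPM in control and 47.3 ± 8.18 CPM with HME (mean ± SD, n = 3), a difference that did not pass. Its fitted interaction of -5.47 (adjusted p = 0.036) is therefore no measure of size. The remaining 6 had interactions between -2.74 and -1.69. They were named after their values were seen, and each was called in 1 to 3 of the 12 fits without 1 library.

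HGD (ENSG00000113924, UTR at chr3:120346823-120347376), the homogentisate dioxygenase of tyrosine breakdown, was the 1 called gene that rose in Ls174 alone. It went from 2.46, 2.48 and 5.63 CPM to 18.2, 17.8 and 19.1 CPM in Ls174 and lay between 245.7 and 369.1 CPM in all HepG2 libraries. The interaction was 2.27 ± 0.44 (adjusted p = 0.0311, up to 0.12 without Ls174 HME 3). The liver markers other than HNF4A summed to 70.7 CPM in Ls174 HME 1, 0.36 CPM in Ls174 HME 2 and 9.86 CPM in Ls174 HME 3, and HGD was at the same level in these 3 libraries. In Ls174 control 3, where these markers summed to 135.2 CPM, HGD was the highest of the controls. Whether the liver RNA in these libraries bears on the level of HGD was not tested. FAM111A, a protease that restricts viruses and acts at replication forks, fell in HepG2 from 17.2, 34.9 and 16.6 CPM to 1.58, 3.89 and 2.40 CPM and in Ls174 went from 76.2, 59.9 and 54.3 CPM to 45.5, 51.2 and 44.7 CPM. Its interaction was 2.63 ± 0.53 (adjusted p = 0.0363, up to 0.125 without Ls174 HME 2), and the groups did not overlap in either line.

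Among called genes with fewer than 5 CPM on average in a line, RASD1 and FAM46C had the lowest values beside MUC13. RASD1, a RAS-like protein induced by glucocorticoids, rose from 3.23, 1.25 and 3.64 CPM to 110.8, 168.6 and 214.4 CPM in HepG2 and was at or near the floor in all Ls174 libraries (interaction -7.21 ± 1.25, adjusted p = 0.0169, up to 0.0976 without Ls174 control 1). FAM46C, a poly(A) polymerase, had no read in HepG2 control and 5.54, 2.12 and 6.61 CPM in HepG2 HME cells, at least 2.55-fold higher, and lay between 4.62 and 10.8 CPM in Ls174 (adjusted p = 0.0276, up to 0.0973 without Ls174 HME 2). Both genes rose in HepG2, and the size of their interaction depends on the low group.

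Other pathways held few or no called genes. Over all genes edgeR called 0.644%, so that 0 calls in a list of this size is near that share and says little about its members. With edgeR, none was called among NF-kB targets and chemokines (23 tested), NRF2 targets (32), ATF4 targets (33), endoplasmic reticulum chaperones (25), heat shock chaperones (21), EGF receptors and ligands (9), Wnt targets (19), mitosis (39), double-strand break repair (27), respiratory chain (76), ribosomal proteins (78), liver plasma proteins (42) or liver transcription factors (19). With DNA replication these are 14 lists with 487 entries, of which 38 had a positive and 28 a negative value at an unadjusted p under 0.05 and a log2 value beyond 0.58, against 5.75% and 7.42% of all genes. DESeq2 called 18 of these entries and limma voom 35, not far from the 2.91% and 6% of all genes that these tools called. The pooled counts hide lists that lean to 1 side. Endoplasmic reticulum chaperones had 5 negative and 0 positive values of 25 by the same thresholds, with a median of -0.52. The respiratory chain had 9 positive and 0 negative values of 76, with a median of 0.22. DNA replication had 0 called of 44 but 8 with a positive and 0 with a negative value by the same thresholds (5.75% and 7.42% of all genes), and a median of 0.49. MCM4, a subunit of the replicative helicase, was at 180.3 ± 82.7 CPM (mean ± SD, n = 3) in HepG2 control against 72.5 ± 5.94 CPM with HME and at 105.5 ± 22.6 against 100.5 ± 6.02 CPM in Ls174, with an interaction of 1.24 ± 0.44 and an adjusted p of 0.231. NRF2 targets had 5 values in each direction, with TXNRD1 at -2.57 ± 0.65 and TRIM16 at 2.32 ± 0.52 (adjusted p = 0.0973 and 0.0634). CXCL1, a neutrophil chemokine, had 36.7 ± 3.58 CPM in Ls174 HME cells (mean ± SD, n = 3) and means of at most 1.04 CPM, under the floor, in the other groups, with an adjusted p of 0.153.

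The tool mattered for these counts. DESeq2 called 16 and limma voom 16 of the 29 early response and feedback genes, against 8 with edgeR, all negative. Over all genes DESeq2 called 2.37%, limma voom 3.99% and edgeR 0.613% with a negative value. For DNA replication the counts were 0 and 1 and for the respiratory chain 0 and 5, all positive, against 0.544% and 2.02% of all genes. The medians of the early response, metallothionein and cytokine lists stayed between -2.67 and -1.74 under other scalings, DESeq2, limma voom and without HepG2 control 2 and Ls174 control 1.

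**Figure D4:**
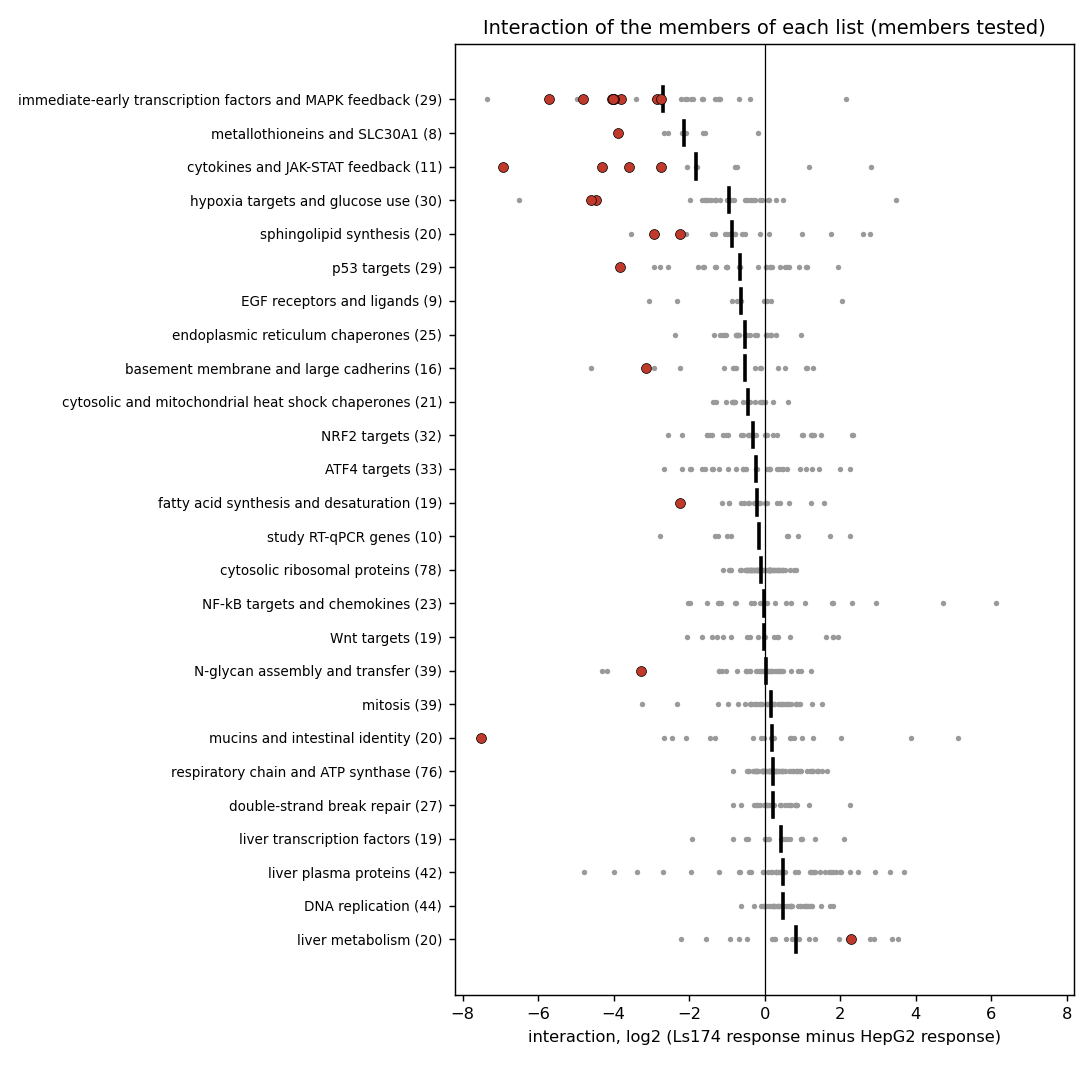
Interaction, as log2 of the Ls174 response minus the HepG2 response, of each tested member of 26 gene lists. Grey points are genes that were not called, red points genes that were, and black bars list medians. Early response, metallothionein and cytokine genes lie furthest to the left, and the only called gene on the right is HGD.

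Among 10 genes also followed by RT-qPCR, 0 were called for the interaction by edgeR, against 0.644% of all genes. With 10 genes, 0 calls is near that share and says little about them. Of the 10, 3 had an unadjusted p under 0.05, against 13.2% of all genes. DESeq2 called 1 and limma voom 3 of the 10, against 2.91% and 6% of all genes. BRCA1, the breast cancer repair gene, had 46.6 ± 28.4 CPM (mean ± SD, n = 3) in HepG2 control and 7.96 ± 1.38 CPM with HME, and 23.1 ± 7.67 and 19.1 ± 1.83 CPM in Ls174. Its interaction was 2.26 ± 0.58 with a 95% interval from 1.12 to 3.40 (edgeR adjusted p = 0.102). BBC3, the apoptosis gene PUMA, had 21.7 ± 18.2 and 175.9 ± 153.0 CPM in HepG2 and 20.8 ± 9.29 and 24.6 ± 6.52 CPM in Ls174 (mean ± SD), with -2.78 ± 0.87 (95% interval -4.48 to -1.08, adjusted p = 0.178). ANAPC15, a subunit of the anaphase-promoting complex, had 1.73 ± 0.67 (adjusted p = 0.276). For CDKN1A, the p53-driven cell cycle inhibitor p21, the interval ran from -2.15 to 0.15, and for PRKDC, the DNA-dependent kinase, from -0.87 to 2.12, so that neither a sizeable difference nor its absence was shown. In HepG2, NFKBIA, GADD45A and VEGFA rose 5.82-, 6.08- and 3.76-fold. In Ls174 they had ratios of 2.47, 2.46 and 2.025, which did not pass (edgeR adjusted p = 0.412, 0.449 and 0.327). Treated libraries of these genes and of CDKN1A lay above the controls in each line. ORC1 and PIDD had interactions of 0.88 ± 0.64 and 0.58 ± 0.60. No interaction of NFKBIA, GADD45A, VEGFA, ORC1 or PIDD passed (edgeR adjusted p of 0.51 or more).

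The called genes differed in what they had before treatment and in their length. In control cells, 29 of the 80 entries with a negative value (36.2%) had a higher mean CPM in HepG2 than in Ls174, against 50.7% of all tested genes, and with HME 71 of the 80 did (88.8%, against 49.9%). Since the interaction is made of these same levels, the shares describe it and support nothing beyond it. The genes that rose in HepG2 only spanned a median of 16.7 kb on the genome and those that fell in Ls174 98.2 kb, against 27.4 kb for all tested genes. Across all tested genes the median interaction went from 0.16 in the fifth with the shortest genes to -0.17 in the fifth with the longest, and the median Ls174 response from 0.11 to -0.07. The main counted region lay in a UTR for 80 of the 84 entries, and 82 were protein-coding.

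How firmly each call stood varied. Without 1 library at a time the number of calls went from 17 (without Ls174 HME 3) to 143 (without Ls174 control 1), and all 84 entries kept their sign in each of the 12 fits. The counts were 18 without Ls174 HME 2, 30 without Ls174 HME 1, 41 and 53 without Ls174 control 2 and 3, 33, 34 and 30 without HepG2 HME 1, 2 and 3, and 84, 117 and 48 without HepG2 control 1, 2 and 3. Among the 15 entries called in every one of these fits were C3orf58, CNNM4, DUSP5, EGR1, IER3, IER5, JAG1, KLF5, LINC00152, MT2A, PFKFB3, PIM1 and SLC5A3, the last under both identifiers. Without HepG2 HME 2, the library with collagen RNA, 33 of the 84 were among the 34 calls. With the replicate number as a block within each line, 16 of the 84 entries were called, all with a negative value. DESeq2 called 380 genes, 71 of them positive (18.7%), and limma voom with sample weights 783, 263 of them positive (33.6%), against 4 of 84 (4.76%), and all 84 entries were among each.

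**Figure D5:**
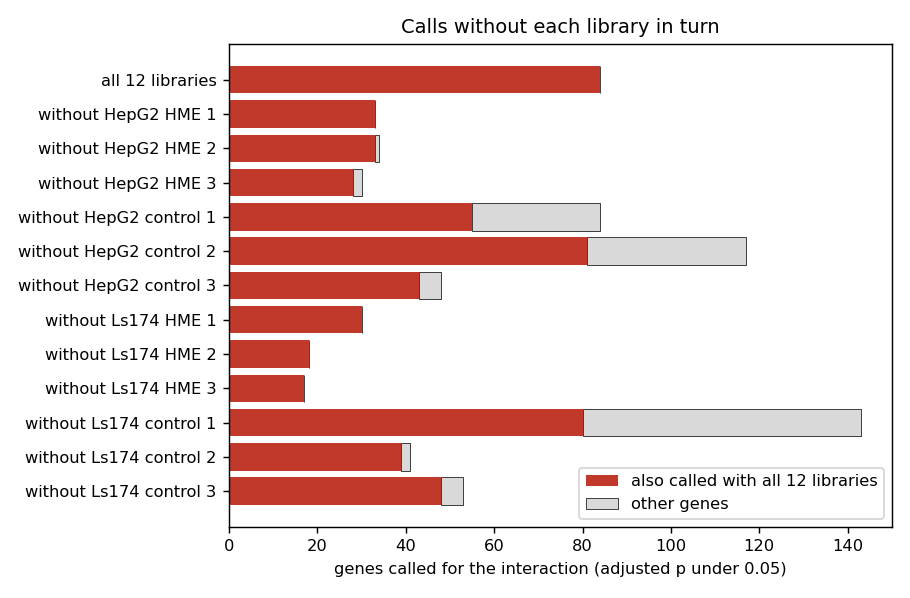
Number of genes called for the interaction at an adjusted p under 0.05 with all 12 libraries and without each library in turn. The red part of a bar counts genes that were also among the 84 called with all libraries, the grey part other genes. Leaving out a treated Ls174 library left 17 to 30 calls, and leaving out Ls174 control 1 gave 143.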

How the data were processed

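The authors prepared 3′ QuantSeq libraries for Ion Torrent, inspected read quality (FASTQC), mapped to hg19 using Hisat2 without changed settings, and used metaseqR2 downstream. The submitters' processing notes also name Bowtie2 and Trimmomatic. The deposited files hold, for each library, whole-number read counts per 3′ region, not normalized. Strand use and the treatment of reads with several alignments are not given in the sources used here.

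Counts were summed over the 144910 regions to 57736 genes. edgeR 4.0.16 (R 4.3.3) fitted the 4 group means on all 12 libraries after filterByExpr and TMM scaling, with no covariate, and the quasi-likelihood F test gave both responses and their difference, two-sided, with Benjamini-Hochberg adjustment over 13040 genes. SEs came from the F statistic and CPM values used TMM-scaled library sizes. DESeq2 1.42.0 and limma 3.58.1 (voom with sample quality weights) were alternatives, beside other scalings and filters, a replicate block and fits without libraries. Intervals and floors cover counting error or replicate spread only. No replicates agreed within sampling noise (chi-square per degree of freedom 4.44 or more). The main fit did not pair libraries by replicate number. The deviations of libraries with the same number correlated between -0.15 and 0.07. With 3 libraries a group this cannot exclude a pairing.

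The members, gene lists and tests were chosen with earlier results of these data known, and the 28 lists were written from general knowledge. Named genes were the 8 lowest and 8 highest called interactions with at least 5 CPM on average in each line (only 4 were positive), the 6 largest opposite movements in each order, the 3 lowest and 3 highest below 5 CPM, the 10 RT-qPCR genes and list members. Some items are not reported here. Annotation came from GENCODE v44lift37 on GRCh37, the build of the files. Figures used matplotlib 3.10.9 with Python 3.11.15.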

Additional observations from a re-analysis of the deposited data

Results flagged for a closer look

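The response to HME differed between the lines, by the test of the interaction itself, for 84 genes, and the named ones are listed here with their interaction on the log2 scale (Ls174 minus HepG2). Among early response and feedback genes, with KLF5 and ZFP36 from outside that list, the values were -5.71 for DUSP5, -5.10 for KLF5, -4.82 for EGR1, -4.28 for ZFP36, -4.03 for ATF3, -4.01 for DUSP1, -3.99 for IER5, -3.80 for IER3, -2.85 for FOSL2 and -2.75 for FOSL1. For cytokine, JAK-STAT feedback and metal genes and for the p53 target SFN they were -6.92 for IL11, -4.31 for LIF, -3.88 for MT2A, -3.84 for SFN, -3.59 for PIM1 and -2.74 for PIM3.

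For genes of metabolism, transport and the cell surface they were -4.60 for ADM, -4.46 for PFKFB3, -4.05 for CNNM4, -3.94 for SLC5A3, -3.52 for ITGA2, -3.28 for SLC19A2, -3.27 for MAN1A1, -3.13 for FAT1, -2.93 for SGMS1, -2.25 for ACSL3 and -2.24 for CERS6. For genes with few or no reads in a group they were -7.52 for MUC13, -7.21 for RASD1, -7.14 for FAM46C and -5.58 for PLK2. The positive values were 2.05 for RFXANK, 2.27 for HGD, 2.63 for RP11-284F21.10 and 2.63 for FAM111A.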

How the results depend on the processing

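All 84 called entries kept the sign of their interaction under every alternative in which they were tested, and the 35 named called genes kept their call in 510 of 713 combinations of gene and setting and lost it in 203. Counts are given in the order interaction, opposite genes, HepG2 response and Ls174 response, against 84, 21, 807 and 100. They were 380, 84, 1567 and 352 with DESeq2, 783, 235, 1342 and 1194 with limma voom, 367, 90, 1461 and 298 without a filter, 433, 119, 1845 and 400 without HepG2 control 2 and Ls174 control 1, and 1718, 77, 3070 and 1302 at the thresholds of the study. Library size scaling gave 49 for the interaction and 13 opposite genes, and a filter of 10 counts in every library 46, 12 and, in HepG2, 531. With an adjusted p under 0.05 in each line there were 4 opposite genes. Upper-quartile scaling called 72 genes, and leaving out regions shared between genes 84. With the replicate block the counts were 16, 5, 305 and 5, and the labels do not say that a number marks a shared culture day. Without 1 library they ranged from 17 to 143, 6 to 45, 321 to 1528 and 4 to 259. The causes were not tested. Fewer genes entered with the stricter filter (7080). With 3 libraries a group and at most 3656662 counts each, interactions under 1.69 were not called, and genes near 3 counts have no reliable fold.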

Other observations

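Small nuclear RNAs, the RNA parts of the splicing machinery, were outside the lists of the report. With edgeR, 0 of 42 tested entries were called for the interaction, 11 had a negative and 2 a positive value at an unadjusted p under 0.05 and a log2 value beyond 0.58, against 7.42% and 5.75% of all genes, and the median interaction was -1.62. Within HepG2, 25 of the 42 rose at an adjusted p under 0.05, and 2 in Ls174, against 3.99% and 0.176% of all genes. Many of these entries are near-identical copies whose reads can be split between them, and most lack a poly(A) tail, so that their counts are uncertain. By the same thresholds antisense transcripts had 19 positive and 2 negative values of 195 tested and a median of 0.56, with 1 entry called, RP11-284F21.10. Long intergenic RNAs had 21 positive and 5 negative values of 232, 1 called with a negative value, and a median of 0.30. No class was tested as such. The counts with DESeq2 and limma voom were not computed for these classes.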
